A study of Homo sapiens with 14 samples.

Results

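Lipid droplet and triglyceride turnover was followed through 10 genes, PLIN2, PLIN3, HILPDA, G0S2, PNPLA2, ABHD5, LIPE, MGLL, DGAT1 and DGAT2, which were taken by symbol from tables of 62749 genes. All 10 passed the filter on low counts and stood among the 22560 genes tested. The RNA came from tumours grown in mice from UMUC3, an established human bladder cancer line. The tumour cells were FASN knockdown cells, for which the labels give neither the method nor the number of clones, or control cells, whose titles name a control short hairpin. Before they were grafted the cells had grown in regular medium or in medium with 10% cigarette smoke medium (CSM). The groups were FASN knockdown (3 libraries), control (3 libraries), FASN knockdown after CSM (4 libraries) and control after CSM (4 libraries). The exposure time, the strain and age of the mice and the age of the tumours are not stated in the labels, and all groups share the UMUC3 background and a mouse host. How reads of the host were handled is not given in the sources used here, and only human transcripts are in the deposited tables. The comparisons asked how loss of fatty acid synthase, the enzyme encoded by FASN that makes palmitate, and earlier exposure to smoke medium bear on the tumours.

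Cells store fatty acids as triglycerides in lipid droplets, organelles whose surface is covered by perilipin coat proteins such as PLIN2 and PLIN3. DGAT1 and DGAT2 carry out the last step of triglyceride synthesis. Breakdown is started by the lipase PNPLA2, which ABHD5 activates and which G0S2 and HILPDA inhibit, and is completed by LIPE on diglycerides and MGLL on monoglycerides. HILPDA and PLIN2 are known in many tumours as genes whose RNA is higher under low oxygen.

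The summed counts ran from 15810287 to 45209466 per library, and the 10 genes together took 0.0206% to 0.0504% of them. The 7SL RNA, a noncoding RNA of the ribosome-bound machinery for secreted proteins, took 2.64% to 25.6%. FASN, the targeted gene, stood at 121, 99.9 and 132 CPM (counts scaled to a common library total) in the FASN knockdown libraries, against 571, 404 and 379 CPM in control libraries. It stood at 220, 166, 301 and 479 CPM in replicates 1 to 4 labelled FASN knockdown after CSM, against 366 to 479 CPM in control libraries after CSM. In CPM the FASN RNA of replicate 4 of this group is at the control level, contrary to its label, so the group is called by its label throughout. CPT1A, called below, stood at 136 CPM in this library, against 331 to 435 CPM in control libraries after CSM. PNPLA3 stood at 9.47 CPM against 2.20 to 3.26 CPM, and CDH2 at 105 CPM against 10.4 to 56.5 CPM. These values lay on the side of replicates 1 to 3, while G0S2, at 42.3 CPM, lay within the control range. The calls of CPT1A, PNPLA3 and CDH2 include this library. Tested with edgeR (quasi-likelihood, p adjusted after Benjamini and Hochberg over all genes), FASN in regular medium had a log2 fold change of -1.94 (SE 0.33, adjusted p = 0.0245), and that call ended whenever 1 of these 6 libraries was left out (edgeR adjusted p = 0.0549 to 0.137). After CSM it was -0.57 (SE 0.28, edgeR adjusted p = 0.288), and 0.19 on the TPM scale, where the median over all genes was 0.39. In TPM (abundance corrected for length) FASN was 63.1, 21.6, 65.5 and 103 in replicates 1 to 4 labelled FASN knockdown after CSM. Control libraries after CSM had 63.7, 58.0, 28.2 and 51.7 TPM, so on that scale only replicate 2 lay below every control. All levels in CPM are on library totals scaled with the trimmed mean of M-values (TMM).

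Markers of the line and human genes that mark fat, myeloid, fibroblast and endothelial cells were read as well. The deposited tables hold only human transcripts and the host is a mouse, so these genes are not a measure of host cells. As the handling of host reads is not given, whether some were counted under these human genes is not known. VIM, a mesenchymal filament gene, had a median of 1992 CPM and KRT18, an epithelial keratin gene, 148 CPM over the 14 libraries. Of the markers of urothelial differentiation, UPK1B had a median of 2.15 CPM and was above 0 in all 14 libraries, GATA3 had 0.911 CPM and CDH1 0.513 CPM, and UPK2 was at 0 in 9 libraries. Of 6 adipocyte markers the summed level was 0.701 to 2.15 CPM in FASN knockdown libraries, 0.384 to 0.868 CPM in control libraries, 0.671 to 1.12 CPM in libraries labelled FASN knockdown after CSM and 0.144 to 0.983 CPM in control libraries after CSM. FABP4, which fat cells express at very high level, was at 0 in 13 of 14 libraries and LPL in 12. Of 7 myeloid markers the summed level was 7.67 to 27.9 CPM in FASN knockdown libraries, 6.31 to 9.58 CPM in control libraries, 9.55 to 13.1 CPM in libraries labelled FASN knockdown after CSM and 5.29 to 10.2 CPM in control libraries after CSM, with TYROBP at 0 in all 14. Of 5 fibroblast markers the summed level was 2.97 to 4.15 CPM in FASN knockdown libraries and 6.18 to 9.00 CPM in control libraries, and 3.84 to 6.54 CPM in libraries labelled FASN knockdown after CSM and 5.19 to 6.30 CPM in control libraries after CSM. In regular medium PDGFRB had a mean of 0.937 CPM in FASN knockdown and 4.05 CPM in control libraries, COL1A1 1.98 and 2.79 CPM, and DCN 0.384 and 0.264 CPM. After CSM COL1A1 had a mean of 3.05 CPM in libraries labelled FASN knockdown and 1.69 CPM in control libraries. Of 5 endothelial markers the summed level was 1.29 to 2.80 CPM over all 14 libraries. Values near 0 therefore do not show that host cells were few, and their part in the results was not tested. In tissue RNA, fewer cells of a type and less RNA per cell cannot be told apart.

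PLIN2 and PLIN3 are the coat genes among the 10, and PLIN2 had the smallest p of the 10 genes after CSM. Their upstream windows are shown because a stretch of each holds ACGTG or GCGTG, the core letters of the hypoxia response element, and because the level of PLIN2, more than that of PLIN3, ran beside hypoxia markers across the libraries. PLIN2 lies on chromosome 9 from 19108388 to 19127492 and PLIN3 on chromosome 19 from 4838341 to 4867667, both on the minus strand (RefSeq, GRCh38.p14). The windows, from RefSeq, are the 250 bases before each gene's start, at chr9:19127493-19127742 for PLIN2 and chr19:4867668-4867917 for PLIN3, printed 5′ to 3′ on the gene's strand. Capitals mark each ACGTG or GCGTG on either strand.
PLIN2: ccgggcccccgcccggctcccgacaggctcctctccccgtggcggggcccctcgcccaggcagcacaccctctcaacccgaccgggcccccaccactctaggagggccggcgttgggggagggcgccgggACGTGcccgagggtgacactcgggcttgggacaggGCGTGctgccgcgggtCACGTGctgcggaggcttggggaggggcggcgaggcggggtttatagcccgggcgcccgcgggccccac
PLIN3: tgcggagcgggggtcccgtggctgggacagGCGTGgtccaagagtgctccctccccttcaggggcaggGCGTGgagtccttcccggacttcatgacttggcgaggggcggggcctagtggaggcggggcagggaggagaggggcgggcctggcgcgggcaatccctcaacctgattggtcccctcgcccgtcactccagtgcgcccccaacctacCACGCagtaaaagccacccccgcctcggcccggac
The PLIN2 window held 4 matches, of which 2 overlap in the palindrome CACGTG, and the PLIN3 window held 3. Of 35116 RefSeq windows of this length, 43.2% held at least 1 match and 19.4% held at least 2. Windows of 6 of the 10 genes were in the table used, and of the other 4 G0S2 held 4 matches, ABHD5 held 1 in each of 2 windows and 0 in 1, and PNPLA2 and LIPE held 0. A match is a run of letters, and nothing about binding was measured.

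Compared per length, in TPM (transcript abundance corrected for length), the 10 genes spanned more than an order of magnitude. The median over the 14 libraries was 38.3 TPM for PLIN3, 25.2 TPM for PNPLA2, 22.1 TPM for G0S2, 19.2 TPM for HILPDA and 18.9 TPM for DGAT1. It was 9.60 TPM for PLIN2, 4.35 TPM for DGAT2, 3.87 TPM for MGLL, 2.29 TPM for ABHD5 and 2.28 TPM for LIPE. PLIN3 was above PNPLA2 in 12 of 14 libraries and was the highest of the 10 genes in 8. Neighbours in the series PNPLA2, G0S2, HILPDA and DGAT1 could not be ordered, since each stood above the next in only 7 or 8 of 14 libraries. PNPLA2 was above DGAT1 in all libraries but replicate 4 labelled FASN knockdown after CSM (36.6 against 37.8 TPM). DGAT1 was above PLIN2, and PLIN2 above DGAT2, in 13 of 14 libraries. DGAT2 was above MGLL in 8, MGLL above ABHD5 in 10 and ABHD5 above LIPE in 8. The order of neighbours among the 4 lowest genes was thus not settled either, although DGAT2 was above ABHD5 in every library. The estimated reads behind a gene ran from 27 for LIPE in FASN knockdown replicate 2 to 5788 for PLIN3 in replicate 4 labelled FASN knockdown after CSM, and LIPE (27 to 333 reads) and ABHD5 (102 to 361 reads) were the most thinly covered.

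**Figure D1:**
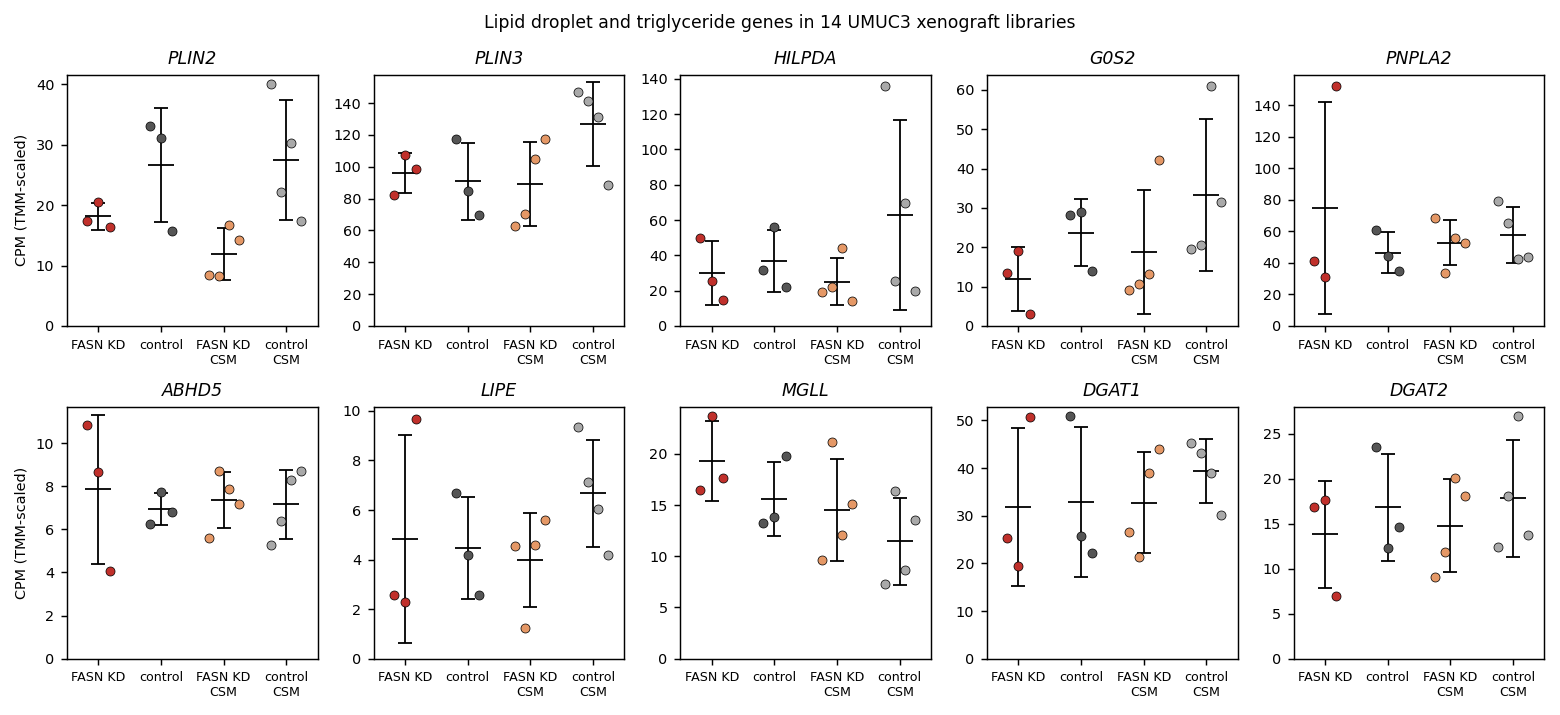
Levels of the 10 genes in CPM on TMM-scaled totals, 1 point per library, with FASN knockdown (FASN KD) left of control in each medium. The long bar is the group mean and the whiskers are 1 SD (n = 3 in regular medium and n = 4 after CSM). After CSM the PLIN2 points of libraries labelled FASN knockdown, 8.28 to 16.7 CPM, lie below every control point, and PNPLA2, DGAT1 and LIPE are high in FASN knockdown replicate 3.

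PLIN2, which coats droplets in most cell types, had a lower mean in FASN knockdown than in control libraries in both media, and after CSM the groups did not overlap in CPM. In regular medium PLIN2 had 17.3, 20.6 and 16.4 CPM in FASN knockdown libraries, against 33.1, 31.1 and 15.7 CPM in control libraries. Control replicate 3 lay below all 3 FASN knockdown libraries, so the groups overlapped. After CSM it had 8.37, 8.28, 16.7 and 14.2 CPM in libraries labelled FASN knockdown, against 40.0, 22.2, 30.3 and 17.4 CPM in control libraries. Every library labelled FASN knockdown after CSM was below every control, and the nearest pair was 16.7 and 17.4 CPM. The lower values, in replicates 1 and 2, are from the libraries of this group with less FASN RNA, and replicates 3 and 4 have more of both.

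The group means of PLIN2 were 18.1 CPM ± 2.19 in FASN knockdown and 26.6 CPM ± 9.50 in control libraries (SD, n = 3 each), and after CSM 11.9 CPM ± 4.25 in libraries labelled FASN knockdown and 27.5 CPM ± 9.93 in control libraries (SD, n = 4 each). In regular medium the log2 fold change was -0.56 (SE 0.36, 95% interval -1.32 to 0.21, edgeR adjusted p = 0.718). After CSM it was -1.21 (SE 0.31, 95% interval -1.87 to -0.54), with an unadjusted p = 0.00156 and an edgeR adjusted p = 0.0735 over all genes, so PLIN2 missed the threshold of 0.05. Averaged over both media it was -0.88 (SE 0.24, edgeR adjusted p = 0.0545). DESeq2 called PLIN2 lower after CSM (DESeq2 adjusted p = 0.0117) and on average (adjusted p = 0.0147), while limma on log2(TPM + 1) gave -0.36 after CSM (adjusted p = 0.631). All genes had a median of 0.39 on that scale, and relative to it PLIN2 was at -0.75. In TPM PLIN2 ranged from 3.35 to 12.8 in libraries labelled FASN knockdown after CSM and from 6.18 to 21.4 in control libraries, so on that scale the groups overlapped. The log2 fold change after CSM stayed between -1.39 and -0.93 in the 8 fits that left out 1 library. Without replicate 4, which has FASN at the control level, it was -1.29 (edgeR adjusted p = 0.106).

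PLIN3, a coat protein that moves from the cytosol onto new droplets, showed no such separation. In regular medium it had 82.4, 107 and 98.8 CPM in FASN knockdown libraries, against 118, 85.0 and 69.9 CPM in control libraries. After CSM it had 62.9, 70.4, 105 and 118 CPM in libraries labelled FASN knockdown, against 147, 141, 131 and 88.6 CPM in control libraries. The groups overlapped in both media, after CSM through control replicate 4. PLIN3 had a log2 fold change of 0.08 in regular medium (SE 0.28, edgeR adjusted p = 0.978) and -0.51 after CSM (SE 0.24, 95% interval -1.03 to 0.01, edgeR adjusted p = 0.275), and on the TPM scale -0.21 and 0.20, with medians over all genes of -0.14 and 0.39. With the 7SL share as a covariate PLIN3 was at -0.60 after CSM (SE 0.25, edgeR adjusted p = 0.206).

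Within a library the 2 coat genes can be set against each other, which removes the scaling between libraries. The TPM ratio of PLIN3 to PLIN2 was 3.86, 4.35 and 4.98 in FASN knockdown libraries, against 2.98, 2.28 and 3.85 in control libraries. It was 5.60, 7.65, 4.99 and 6.33 in libraries labelled FASN knockdown after CSM, against 2.87, 4.94, 4.02 and 4.38 in control libraries after CSM. The ratio was higher in FASN knockdown without overlap in both media, by 1.47-fold and 1.53-fold, although the nearest values, 3.86 against 3.85 and 4.99 against 4.94, almost touch. An exact, two-sided permutation test gave p = 0.1 in regular medium, which no arrangement of 3 against 3 libraries can go below, and p = 0.0286 after CSM, the floor for 4 against 4. This was 1 of 5 ratios among the 10 genes, chosen after their values were seen, and after Benjamini-Hochberg adjustment over the 10 exact tests p was 0.5 and 0.286. Taken from reads in place of TPM, the ratio was 4.75 to 6.02 in FASN knockdown against 2.73 to 4.44 in control libraries, and 6.29 to 8.51 in libraries labelled FASN knockdown after CSM against 3.67 to 6.37 in control libraries, which overlap (exact permutation p = 0.0571). The ratio of PNPLA2 to LIPE on reads was 13.7 to 16.2 in FASN knockdown against 9.13 to 13.6 in control libraries (1.39-fold, no overlap, exact permutation p = 0.1). After CSM it was 9.41 to 27.5 in libraries labelled FASN knockdown against 6.98 to 10.5 in control libraries (1.70-fold, overlap, exact permutation p = 0.0571), and by TPM it was 1.18-fold and 1.09-fold (exact permutation p = 0.5 and 0.886).

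**Figure D2:**
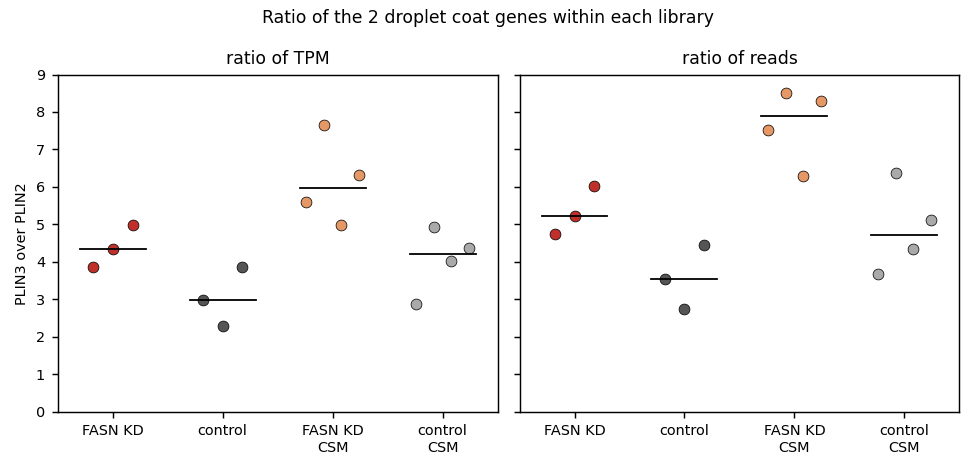
Ratio of PLIN3 to PLIN2 within each library, from TPM on the left and from estimated reads on the right, with FASN knockdown (FASN KD) left of control in each medium. Points are libraries and bars are group medians. By TPM the knockdown points lie above the control points in both media, with 4.99 as the lowest value labelled FASN knockdown after CSM and 4.94 as the highest control, and by reads the groups overlap after CSM.

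The 2 inhibitors of PNPLA2 varied widely between libraries of 1 group. HILPDA, a small droplet protein on chromosome 7 (128455878 to 128458418), had 49.8, 25.6 and 14.5 CPM in FASN knockdown libraries, against 31.7, 56.2 and 22.3 CPM in control libraries. After CSM it had 19.4, 22.2, 44.3 and 14.0 CPM in libraries labelled FASN knockdown, against 136, 25.6, 69.6 and 19.7 CPM in control libraries. The groups overlapped in both media, and the highest library of all was control replicate 1 after CSM. HILPDA had a log2 fold change of -0.29 in regular medium (SE 0.64, edgeR adjusted p = 0.960) and -1.33 after CSM (SE 0.57, 95% interval -2.53 to -0.13, unadjusted p = 0.0323, edgeR adjusted p = 0.229). Without control replicate 1 after CSM the second value was -0.59 (edgeR adjusted p = 0.522). By TPM HILPDA was at -0.31 after CSM (limma adjusted p = 0.742), or -0.71 relative to the median of all genes.

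G0S2, on chromosome 1 (209675412 to 209676390) and quantified from a single transcript, had 13.5, 19.2 and 3.12 CPM in FASN knockdown libraries, against 28.2, 29.1 and 13.9 CPM in control libraries. After CSM it had 9.02, 10.5, 13.1 and 42.3 CPM in libraries labelled FASN knockdown, against 19.6, 20.6, 61.0 and 31.5 CPM in control libraries. Replicates 1 to 3 labelled FASN knockdown after CSM were below every control, and replicate 4, which has FASN at the control level, was above 3 of the 4 controls. The log2 fold change was -1.01 in regular medium (SE 0.66, 95% interval -2.41 to 0.39, edgeR adjusted p = 0.723) and -0.82 after CSM (SE 0.56, 95% interval -2.02 to 0.37, edgeR adjusted p = 0.435). Without replicate 4 labelled FASN knockdown the value after CSM was -1.59 (edgeR adjusted p = 0.152), and without control replicate 3 it was -0.34 (edgeR adjusted p = 0.836). With the 7SL share as a covariate G0S2 was at -1.47 in regular medium and -0.15 after CSM (edgeR adjusted p = 0.317 and 0.926). In TPM the groups in regular medium did not overlap, with 9.67, 7.21 and 5.01 TPM in FASN knockdown and 27.7, 27.7 and 13.0 TPM in control libraries, and the log2 values there were -1.48 in regular medium and -0.26 after CSM (limma adjusted p = 0.994 and 0.715). The TPM ratio of both inhibitors together to PNPLA2 was 0.222 to 2.11 in FASN knockdown against 1.24 to 3.16 in control libraries, and 0.589 to 2.31 in libraries labelled FASN knockdown after CSM against 1.33 to 3.98 in control libraries (exact permutation p = 0.5 and 0.2).

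HILPDA and PLIN2 ran with a list of 12 hypoxia markers across the libraries, among them CA9, VEGFA, NDRG1 and PDK1, of which 10 were tested. Over the 14 libraries, which share their groups and scaling, the mean log2 CPM of these markers had a Pearson r of 0.88 with HILPDA, 0.71 with PLIN2, 0.34 with PLIN3, 0.25 with G0S2, 0.02 with PNPLA2 and -0.55 with MGLL. That mean was highest in control replicate 1 after CSM, at 7.13, and lowest in replicate 4 labelled FASN knockdown after CSM, at 4.51, which also hold the highest and the lowest HILPDA levels. The summed marker level was 505 to 1607 CPM in FASN knockdown libraries against 625 to 1903 CPM in control libraries, and 392 to 1689 CPM in libraries labelled FASN knockdown after CSM against 947 to 2468 CPM in control libraries.

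Of the 10 tested hypoxia markers, 9 had a negative log2 fold change in regular medium (median -0.46) and 9 after CSM (median -0.88), beside a median over all genes of 0.02 and 0.01. No marker was called in either medium by edgeR. In regular medium 0 of 10 had an unadjusted p below 0.05, beside 9.08% of all genes, and DESeq2 and limma called 0. After CSM 2 of 10 had one, beside 18.5%. DESeq2 called 1, beside 1452 of all 22560 genes, and limma 0, beside 59. Averaged over both media 2 of 10 had an unadjusted p below 0.05, beside 19.6% of all genes. On average DESeq2 called 2 and limma 0 (their counts over all genes are in the closing section). There edgeR called 1, beside 3.52% of all genes. This was ANKRD37, a hypoxia-induced ankyrin repeat gene (log2 fold change -1.90, SE 0.50, edgeR adjusted p = 0.0470). That call ended in 10 of the 14 fits that left out 1 library (edgeR adjusted p up to 0.144, without control replicate 2). The part of these markers in the PLIN2 and HILPDA values was not tested.

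**Figure D3:**
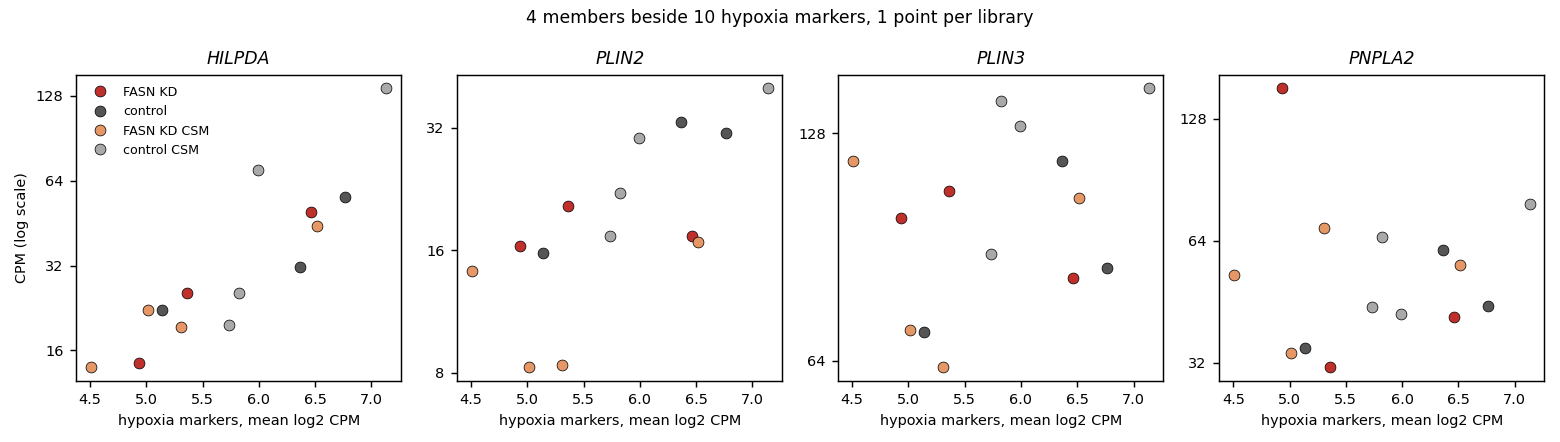
Level of HILPDA, PLIN2, PLIN3 and PNPLA2 in CPM (log axis) against the mean log2 CPM of the 10 tested hypoxia markers, 1 point per library, coloured by group with FASN knockdown (FASN KD) listed before control in each medium. HILPDA follows the markers closely (r = 0.88), PLIN2 less so (r = 0.71), and PNPLA2 shows no slope (r = 0.02).

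PNPLA2, the lipase that opens triglyceride breakdown (chromosome 11, 818914 to 825573), differed between single libraries far more than between groups. It had 41.4, 31.3 and 152 CPM in FASN knockdown libraries, against 60.9, 44.1 and 34.8 CPM in control libraries. After CSM it had 68.7, 33.8, 55.9 and 52.6 CPM in libraries labelled FASN knockdown, against 79.0, 65.5, 42.1 and 43.9 CPM in control libraries. FASN knockdown replicate 3 stood far above all other libraries and the other 2 of its group near the low end. That library also had the highest summed myeloid markers, 27.9 CPM beside 5.29 to 13.1 CPM in the other 13. Most of that sum was 1 gene, LYZ, at 22.5 CPM, and TYROBP of the same list was at 0 in all 14 libraries. The summed adipocyte (2.15 CPM) and urothelial (7.77 CPM) markers were highest there too. The part of these markers in its PNPLA2 level was not tested. The log2 fold change was 0.69 in regular medium (SE 0.47, 95% interval -0.32 to 1.70, edgeR adjusted p = 0.744), and -0.39 without that replicate (edgeR adjusted p = 0.672). After CSM it was -0.13 (SE 0.41, 95% interval -1.0 to 0.74, edgeR adjusted p = 0.889).

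The 3 libraries with most PNPLA2, which are FASN knockdown replicate 3, control replicate 1 after CSM and replicate 1 labelled FASN knockdown after CSM, were also the 3 with most RNA of CDKN1A, a cell cycle inhibitor induced by p53, at 314, 234 and 139 CPM. CDKN1A was chosen after its values were seen, and its other 11 libraries held 19.7 to 64.4 CPM. PNPLA2 also ran against the 7SL share of a library, with r = -0.64 over the 14 libraries, as did DGAT1 (r = -0.60) and LIPE (r = -0.54), while ABHD5 ran with it (r = 0.55). With the 7SL share as a covariate the log2 fold change of PNPLA2 was 0.66 in regular medium and -0.62 after CSM (edgeR adjusted p = 0.254 and 0.164).

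ABHD5, the activator of PNPLA2 (chromosome 3, 43690870 to 43734371), varied little between libraries, the highest being 2.66 times the lowest, beside 2.33 times for PLIN3, 2.63 times for DGAT1 and 19.6 times for G0S2. Its mean was 7.85 CPM ± 3.45 in FASN knockdown and 6.92 CPM ± 0.738 in control libraries (SD, n = 3 each), and after CSM 7.35 CPM ± 1.30 in libraries labelled FASN knockdown and 7.16 CPM ± 1.60 in control libraries (SD, n = 4 each). ABHD5 had log2 fold changes of 0.18 and 0.04 (SE 0.34 and 0.29, edgeR adjusted p = 0.952 and 0.958), and in regular medium -0.11 on the TPM scale. FASN knockdown replicate 3, with the highest PNPLA2, had the lowest ABHD5, 4.08 CPM. The TPM ratio of PNPLA2 to ABHD5 was 46.2 there, against 4.33 to 28.3 in the other 13 libraries.

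LIPE, the hormone-sensitive lipase that acts mainly on diglycerides (chromosome 19, 42401514 to 42427388), was near the low end of the counts. Its mean was 4.85 CPM ± 4.20 in FASN knockdown and 4.47 CPM ± 2.07 in control libraries (SD, n = 3 each), and after CSM 3.99 CPM ± 1.90 in libraries labelled FASN knockdown and 6.68 CPM ± 2.15 in control libraries (SD, n = 4 each). LIPE had a log2 fold change of 0.13 in regular medium (SE 0.59, edgeR adjusted p = 0.985) and -0.74 after CSM (SE 0.51, 95% interval -1.83 to 0.35, edgeR adjusted p = 0.441), where the TPM scale gave 0.40, beside a median over all genes of 0.39. With the 7SL share as a covariate the value of LIPE after CSM was -1.54 (SE 0.38, edgeR adjusted p = 0.0519). Without FASN knockdown replicate 3, which held 9.69 CPM, the value in regular medium was -0.92. An antisense gene, LIPE-AS1, overlaps LIPE and was counted at 0.701 to 1.83 CPM, and as the strand setting is not given in the sources used here, reads of the 2 genes may not be fully separated.

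MGLL, which clears monoglycerides (chromosome 3, 127689066 to 127823185), had means of 19.3 CPM ± 3.90 in FASN knockdown and 15.6 CPM ± 3.61 in control libraries (SD, n = 3 each), and after CSM 14.5 CPM ± 5.01 in libraries labelled FASN knockdown and 11.5 CPM ± 4.23 in control libraries (SD, n = 4 each). Its log2 fold change was 0.30 and 0.34 (SE 0.34 and 0.30, edgeR adjusted p = 0.890 and 0.545). By TPM it was -0.12 in regular medium and 0.81 after CSM (limma adjusted p = 0.994 and 0.230), with medians over all genes of -0.14 and 0.39. After CSM MGLL had 4.69, 6.83, 3.67 and 4.49 TPM in libraries labelled FASN knockdown, against 1.54, 3.26, 1.63 and 3.28 TPM in control libraries. These groups did not overlap in TPM, while in CPM they did. Over the 14 libraries MGLL ran against HILPDA (r = -0.62) and LIPE (r = -0.60).

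Neither enzyme of the last synthetic step separated the groups. DGAT1, an enzyme of the endoplasmic reticulum on chromosome 8 (144314584 to 144326852), had means of 31.8 CPM ± 16.6 in FASN knockdown and 33.0 CPM ± 15.7 in control libraries (SD, n = 3 each), and after CSM 32.8 CPM ± 10.5 in libraries labelled FASN knockdown and 39.4 CPM ± 6.70 in control libraries (SD, n = 4 each). DGAT2, an unrelated enzyme that also sits on droplets (chromosome 11, 75768778 to 75801534), had means of 13.8 CPM ± 5.94 in FASN knockdown and 16.8 CPM ± 5.94 in control libraries (SD, n = 3 each), and after CSM 14.8 CPM ± 5.15 in libraries labelled FASN knockdown and 17.8 CPM ± 6.55 in control libraries (SD, n = 4 each). The log2 fold change of DGAT1 was -0.05 in regular medium (95% interval -0.86 to 0.76) and -0.27 after CSM (95% interval -0.97 to 0.44). That of DGAT2 was -0.29 (95% interval -1.15 to 0.58) and -0.27 (95% interval -1.01 to 0.48), with edgeR adjusted p between 0.681 and 0.991 for both genes. On the TPM scale after CSM the values were 0.45 for DGAT1 and 0.34 for DGAT2, close to the median of all genes at 0.39. With the 7SL share as a covariate DGAT1 was at -0.64 after CSM (SE 0.26, edgeR adjusted p = 0.205) and DGAT2 at 0.0064 (SE 0.37, edgeR adjusted p = 0.995).

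The TPM ratio of DGAT1 to DGAT2 was 1.69 to 13.7 in FASN knockdown against 2.28 to 3.35 in control libraries, and 2.57 to 4.30 in libraries labelled FASN knockdown after CSM against 2.14 to 5.55 in control libraries. The value of 13.7 was again FASN knockdown replicate 3, where DGAT1 was 50.7 CPM and DGAT2 6.99 CPM, the lowest DGAT2 of all libraries.

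**Figure D4:**
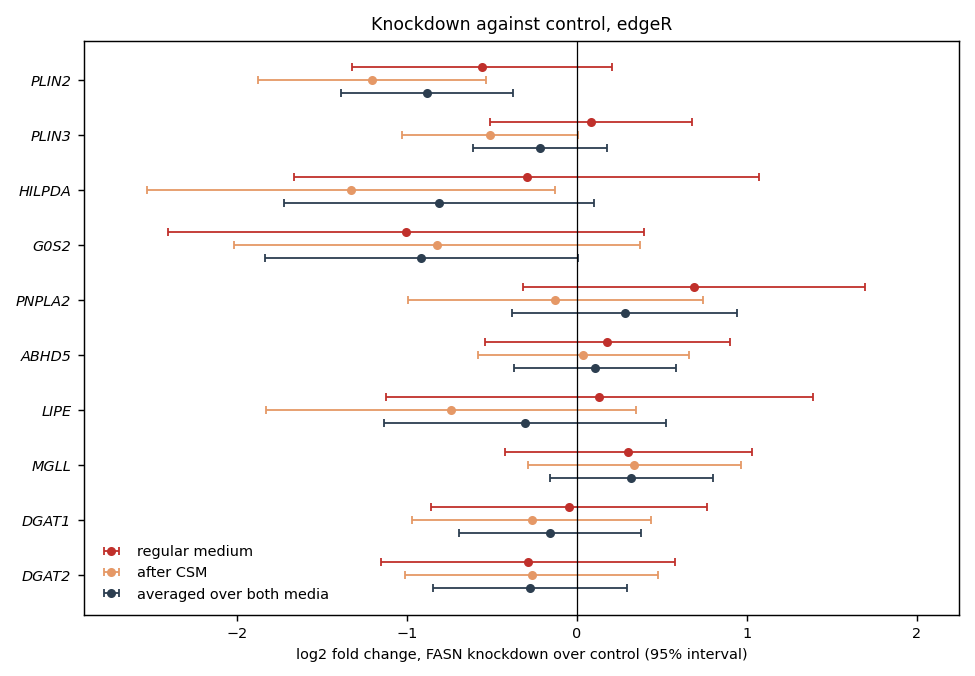
Log2 fold change of FASN knockdown over control for the 10 genes from edgeR, with bars for the 95% interval, in regular medium, after CSM and averaged over both media. The PLIN2 intervals after CSM (-1.87 to -0.54) and on average, and that of HILPDA after CSM, lie below 0, and none of the 10 genes passed an adjusted p of 0.05.

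Counted together, none of the 10 genes was called by edgeR in FASN knockdown against control in regular medium, where 0.204% of all tested genes were called, nor after CSM, where 1.17% were called. In regular medium 0 of 10 had an unadjusted p below 0.05, beside 9.08% of all genes, and DESeq2 and limma called 0. After CSM 2 of 10, PLIN2 and HILPDA, had an unadjusted p below 0.05, beside 18.5% of all genes. DESeq2 called PLIN2, beside 1452 of all 22560 genes, and limma called 0, beside 59. With the 7SL share as a covariate 6 of 10 had an unadjusted p below 0.05 after CSM, beside 18.6% of all genes, and edgeR again called 0. These 6, all with a negative log2 fold change, were PLIN2, PLIN3, HILPDA, PNPLA2, DGAT1 and LIPE. In CPM the groups overlapped for each of the 10 genes in regular medium, where the share of all genes is not given. After CSM they did not overlap for 1 of 10, PLIN2, beside 16.2% of all genes and 7.34% in the lower direction. In TPM they did not overlap for G0S2 in regular medium, 1 of 10 beside 8.49% of all genes, and for MGLL after CSM, 1 of 10 beside 14.3%. The counts of genes without overlap are near these shares. The median log2 fold change of the 10 genes was 0.02 in regular medium, with 5 negative, and -0.39 after CSM, with 8 negative, beside 0.02 and 0.01 over all genes, of which 48.6% and 49.6% were negative.

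Averaged over both media, the 10 genes ranged from -0.92 for G0S2 to 0.32 for MGLL, and 7 were negative. G0S2 had an edgeR adjusted p = 0.258 (SE 0.43) and HILPDA, at -0.81, had an edgeR adjusted p = 0.310 (SE 0.43). The other 7 genes lay between -0.30 for LIPE and 0.32 for MGLL, with edgeR adjusted p from 0.461 to 0.827. Of the 10 genes, edgeR called 0, beside 3.52% of all genes, and 1 had an unadjusted p below 0.05, beside 19.6% of all genes. DESeq2 called 1 and limma 0, and their counts over all genes are in the closing section. Without control replicate 3 edgeR called PLIN2 on average (log2 fold change -1.02, adjusted p = 0.0466).

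Pre-exposure to CSM was also compared with regular medium within each kind of cell, and the 2 comparisons share their libraries with those above. In control cells the 10 genes ranged from -0.44 for MGLL (SE 0.32) to 0.77 for HILPDA (SE 0.61), with PLIN3 at 0.48 (SE 0.26), and 9 of 10 were positive, each at an edgeR adjusted p = 0.9997. None of the 10 was called, beside 0% of all genes, and 0 of 10 had an unadjusted p below 0.05, beside 1.4% of all genes. DESeq2 and limma called none of the 10 genes there, and DESeq2 called 6 of all genes. In FASN knockdown cells the range was -0.60 for PLIN2 (SE 0.33, edgeR adjusted p = 0.795) to 0.67 for G0S2, with 7 of 10 negative. By TPM PLIN2 was at 0.36 there, with a median over all genes of 0.59. None of the 10 was called by edgeR, DESeq2 or limma, beside 0% of all genes by edgeR and 52 genes by DESeq2, and 0 of 10 had an unadjusted p below 0.05, beside 6.67%.

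The difference between the effect of the knockdown after CSM and its effect in regular medium was negative for 7 of the 10 genes. It was -0.65 for PLIN2 (SE 0.47, 95% interval -1.66 to 0.36, edgeR adjusted p = 0.945) and -1.04 for HILPDA (SE 0.85, 95% interval -2.85 to 0.78, edgeR adjusted p = 0.945), and by TPM 0.32 and 0.24, with a median over all genes of 0.57. Both intervals include 0. None of the 10 genes was called by edgeR, DESeq2 or limma, 0 of 10 had an unadjusted p below 0.05, and the background was 0% of all genes called by edgeR and 5.22% with an unadjusted p below 0.05.

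The wider droplet pathway was read from lists chosen with earlier results of these data known. Among 13 other lipases and factors of droplet autophagy, 11 were tested and PNPLA3 alone was called, as higher. It was called after CSM and on average, beside 1.17% and 3.52% of all genes. An unadjusted p below 0.05 was reached by 2 of 11 in each, beside 18.5% and 19.6% of all genes. PNPLA3, a droplet-bound relative of PNPLA2 that binds ABHD5 (chromosome 22, 43923805 to 43947582), had 7.72, 7.22, 12.1 and 9.47 CPM in libraries labelled FASN knockdown after CSM, against 2.20, 2.74, 3.26 and 2.29 CPM in control libraries. In regular medium it had 3.82, 4.58 and 3.00 CPM in FASN knockdown libraries, against 1.94, 1.66 and 1.82 CPM in control libraries. The groups did not overlap in either medium, as held after CSM for 16.2% of all genes in CPM. PNPLA3 rose by 1.80 on the log2 scale after CSM (SE 0.27, edgeR adjusted p = 0.00503) and by 1.43 on average (SE 0.21, edgeR adjusted p = 0.00152), and had 1.06 in regular medium (SE 0.31, edgeR adjusted p = 0.264). The call after CSM held in all 18 alternatives, with an adjusted p up to 0.0412 (limma on log2(TPM + 1)), and the 8 fits without 1 library gave 1.66 to 1.94. On average it held in 22 of 23 and ended with limma (adjusted p = 0.183).

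In the list of glycerolipid synthesis (acyltransferases, lipins and acyl-CoA synthetases upstream of the DGAT enzymes) 15 of 19 genes were tested. Of these 10 had a positive log2 fold change in each medium (median 0.26 in regular medium and 0.19 after CSM), and edgeR called 0. An unadjusted p below 0.05 was reached by 0 of 15 in regular medium, beside 9.08% of all genes, and by 3 of 15 after CSM, beside 18.5%. After CSM DESeq2 and limma each called 1, beside 1452 and 59 of all 22560 genes. Of 18 other genes of droplet coat and assembly, such as PLIN4, BSCL2 and CAV1, 15 were tested and edgeR called 0, with medians of 0.12 and -0.07. Of this list 3 of 15 in regular medium and 2 of 15 after CSM had an unadjusted p below 0.05, beside the same 9.08% and 18.5%. After CSM DESeq2 called 1 and limma 0, beside the same 1452 and 59 genes. Of 3 genes of sterol ester turnover 2 were tested, and 0 were called by edgeR, DESeq2 or limma or had an unadjusted p below 0.05 in either medium. Of 8 PPAR targets 4 were tested, and CPT1A alone was called, after CSM and on average, beside 1.17% and 3.52% of all genes. An unadjusted p below 0.05 was reached by 1 of 4 in each, beside 18.5% and 19.6%. CPT1A, which prepares fatty acids for entry into mitochondria, fell by 1.25 on the log2 scale after CSM (SE 0.18, edgeR adjusted p = 0.00323) and by 0.83 on average (SE 0.13, edgeR adjusted p = 0.00385). On the TPM scale CPT1A was -0.53 after CSM and -0.64 on average (limma adjusted p = 0.424 and 0.502), or -0.93 and -0.76 relative to the median of all genes. Its level after CSM was 164 CPM ± 26.3 in libraries labelled FASN knockdown and 390 CPM ± 44.1 in control libraries (SD, n = 4 each). Of the lists of tumour and cell type markers 3 genes were called, all on average over both media, beside 3.52% of all genes. They were KRT18 at -0.59, CDH2, the N-cadherin gene, at 1.63, and PDGFRB, a fibroblast receptor gene, at -1.79 (edgeR adjusted p = 0.0340, 0.0158 and 0.0110). On average 3 of 5 line markers and 1 of 4 tested fibroblast markers had an unadjusted p below 0.05, beside 19.6% of all genes. Of these 4 fibroblast markers 2 had a positive and 2 a negative log2 fold change on average. The KRT18 call ended in 10 of the 14 fits that left out 1 library.

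The transcripts behind the gene sums differed between the 10 genes. PLIN3 and G0S2 were quantified from coding transcripts alone, and PLIN2 to 91.6% or more and HILPDA to 93.0% or more of reads. Retained-intron transcripts, which keep part of an intron and are not expected to give the full protein, took 26.8% to 47.4% of DGAT1 reads and 13.1% to 40.2% of PNPLA2 reads. For PNPLA2 the share was 13.1% to 30.8% in FASN knockdown and 20.8% to 39.9% in control libraries, and 23.2% to 40.2% in libraries labelled FASN knockdown after CSM and 15.1% to 26.6% in control libraries after CSM. For DGAT1 it was 26.8% to 47.4% in FASN knockdown and 29.1% to 34.6% in control libraries, and 35.7% to 41.0% in libraries labelled FASN knockdown after CSM and 27.2% to 45.5% in control libraries after CSM. These groups overlap. Coding transcripts took 44.4% to 80.7% of MGLL reads and 49.0% to 94.7% of ABHD5 reads, so the gene sums of DGAT1, PNPLA2, MGLL and ABHD5 are less close to a coding level than those of the coats and inhibitors.

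Among themselves the 10 genes fell into loose pairs when the group means were taken out. Over the 14 libraries the within-group Pearson r was 0.83 for PLIN2 with PLIN3 and 0.67 for PLIN2 with HILPDA. It was 0.90 for PNPLA2 with LIPE, 0.90 for DGAT1 with LIPE, 0.80 for PNPLA2 with DGAT1 and -0.90 for PNPLA2 with ABHD5, the lipase with its own activator. It was 0.75 for G0S2 with DGAT2. FASN knockdown replicate 3, which is at an extreme for PNPLA2, LIPE, ABHD5, G0S2 and DGAT2, is part of each of these values.

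The protein-coding genes whose log2 CPM over the 14 libraries was most like each of the 10, among 11860 genes compared, are given with their Pearson r as a description. For PLIN2 these were PPME1 (0.93), EIF1 (0.93) and SPRY2 (0.93), and for PLIN3 PSMD8 (0.97), IDH3G (0.96) and GPX1 (0.96). For HILPDA they were NGLY1 (0.95), DUSP1 (0.91) and PDK1 (0.90), the last of which is 1 of the hypoxia markers above. For G0S2 they were TOMM40L, PNO1 and CRMP1 (0.92 to 0.93), for PNPLA2 ZNF628, ULK1 and ZNF446 (0.97 to 0.99) and for LIPE MAP2K2, POLD4 and LTBR (0.96 to 0.98). For DGAT1 they were PTBP1, ATP13A1 and PTDSS2 (0.96), for DGAT2 MTERF3, YARS1 and CCDC86 (0.92 to 0.94) and for ABHD5 POGLUT1, GPR180 and TMTC4 (0.93 to 0.95). MGLL had the weakest likeness, with MOB3B, UROS and MTG1 at 0.79 to 0.81.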

How the data were processed

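RNA of 14 xenograft tissues was sequenced. No label says that replicates are different mice, so the spread behind each p-value may be technical. Per the submitters' processing notes, FastQC, cutadapt and Salmon were used with GRCh38. Not given in the sources used here are Salmon's version, the annotation release and the strand setting. Per transcript the authors deposited (252048 transcripts per library) Salmon's estimated counts (NumReads) and TPM, with the deposited transcript length and effective length as other values. Estimated counts were summed per gene symbol entry (62749 genes) and rounded to whole numbers, and TPM was summed likewise.

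Counts were tested with edgeR 4.0.16 (R 4.3.3) with its quasi-likelihood F test, TMM factors, a filter on low counts (filterByExpr, minimum count 10, minimum total 15) and 1 coefficient per group over all 14 libraries, with Benjamini-Hochberg adjustment over 22560 genes and a threshold of 0.05. The biological coefficient of variation was 0.444 with 10 residual degrees of freedom. DESeq2 1.42.0, limma 3.58.1 on log2(TPM + 1), other filters and factors, a replicate block, the 7SL share as a covariate and fits without single libraries were the alternatives. The scripts were tested on simulated data. Ratios within a library were tested with exact, two-sided permutation tests. No 2 libraries of the same group agreed within sampling noise, and libraries of different groups were not compared in this way. The genes and lists were chosen with earlier results of these data known. The named genes are the 10 genes, FASN, every list gene that edgeR called in any comparison and, per gene, the 3 coding genes most like it.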

Additional observations from a re-analysis of the deposited data

Results flagged for a closer look

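G0S2 in libraries labelled FASN knockdown after CSM had 1 library far from the others, replicate 4 at 42.3 CPM, against 9.02, 10.5 and 13.1 CPM in replicates 1 to 3. In CPM the gap to the nearest library was 0.878 of the range of the group, above Dixon's 95% critical value of 0.829 for 4 libraries. On the log2 scale, which the fold changes use, the gap is a smaller part of the range and below that value. The flag thus depends on the scale. Of 20 groups of 4 libraries examined this was 1, and chance flags about 1 in 20. The same library held 479 CPM of FASN, at the control level, and the lowest hypoxia marker level of the 14 libraries. Its CPT1A, PNPLA3 and CDH2 levels lay on the side of its own group. The part of FASN or of the hypoxia markers in the G0S2 value was not tested.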

How the results depend on the processing

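Of 49 gene and ratio values, recomputed 924 times in all, 821 kept direction and side of the threshold, 41 reversed, 10 passed the threshold only in the alternative and 52 missed it only there; the cause was not tested. The counts of genes called in regular medium (46 as reported) were 346 with DESeq2, 389 with no filter on low counts, 17 with the replicate block, 134 with the 7SL share as covariate, 17 with limma on log2(TPM + 1), 25 with only the groups of the contrast and 18 without the 2 libraries over 15% 7SL. After CSM (264) they were 1452 with DESeq2, 1178 with no filter, 59 with the block, 59 with limma, 435 with only the groups of the contrast and 133 without the 2 libraries over 15% 7SL. Averaged over both media (795) they were 2016 with DESeq2, 1575 with no filter, 254 with the block, 1553 with the 7SL covariate, 79 with limma and 429 without the 2 libraries over 15% 7SL. For CSM in control cells (0) they were 6 with DESeq2, 62 with no filter and 1 with the 7SL covariate, for CSM in FASN knockdown cells (0) 52, 175 and 3, and for the interaction (0) 7 with DESeq2 and 121 with no filter. Leaving out 1 library gave 11 to 35 genes in regular medium, 86 to 175 after CSM and 255 to 1138 on average, and 0 in the other 3 comparisons. Of the 10 genes, DESeq2 called 1 and no filter called 2 after CSM (PLIN2 and HILPDA), and on average DESeq2 called 1, no filter 3 (with G0S2), the 7SL covariate 1 and leaving out 1 library 0 to 1. Same-numbered libraries deviated from their group means with r from -0.31 to 0.39. Libraries of different numbers were not compared, so whether the numbers pair the libraries was not settled. With the replicate block PLIN2 was -1.16 after CSM and -0.85 on average (edgeR adjusted p = 0.205 and 0.158).

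Values that changed sign, in regular medium, were DGAT1 with a filter of 2 CPM (0.015), with the 7SL covariate (0.039) and without the 2 libraries over 15% 7SL (0.21), LIPE with the replicate block (-0.017), ABHD5 with the 7SL covariate (-0.0089) and with limma (-0.11), PLIN3 with limma (-0.21) and without the 2 libraries over 15% 7SL (-3.56e-06), and MGLL with limma (-0.12). After CSM they were DGAT2 with the 7SL covariate (0.0064), without the 2 libraries over 15% 7SL (0.0098) and with limma (0.34), and with limma PLIN3 (0.20), PNPLA2 (0.57), DGAT1 (0.45), LIPE (0.40) and FASN (0.19). With limma the median over all genes was 0.39 there. Relative to it PLIN3 and FASN were at -0.20, DGAT2 at -0.05, LIPE at 0.0055, DGAT1 at 0.06 and PNPLA2 at 0.17. With limma PLIN2 was 0.36 for CSM in FASN knockdown cells and 0.32 for the interaction, HILPDA 0.24 for the interaction, and on average DGAT1 0.10 and LIPE 0.26. Leaving out 1 library gave, in regular medium, -0.14 to 0.47 for ABHD5, -0.60 to 0.43 for DGAT1, -0.50 to 0.031 for DGAT2, -0.89 to 0.12 for HILPDA, -0.92 to 0.57 for LIPE, -0.094 to 0.32 for PLIN3 and -0.39 to 1.08 for PNPLA2. After CSM it gave -0.052 to 0.17 for ABHD5, -0.42 to 0.018 for DGAT2 and -0.26 to 0.094 for PNPLA2, and on average -0.054 to 0.26 for ABHD5, -0.42 to 0.094 for DGAT1 and -0.25 to 0.48 for PNPLA2. Restricting the fit to the groups of the contrast gives no value for the interaction and the average, which use all groups. Depth limits LIPE most, with 27 reads in its lowest library.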
